A study of Canis lupus familiaris with 51 samples.

Results

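Collagen genes were examined in 51 canine cutaneous mast cell tumors (MCTs), skin tumors made of malignant mast cells. The members were all array probes whose gene name is COL followed by a number, the letter A and a number. This rule found 26 genes, carried by 61 of the 43603 probes of the array, out of 35619 differently named entries. They comprised 8 genes of fibrillar collagens, 6 of basement membrane collagen IV, 5 of the FACIT group (fibril-associated collagens with interrupted triple helices) and 7 of other types. Each tumor came from a different case, was sampled from the centre of the mass at surgery and is represented here by 1 one-color array, with no normal skin among the arrays used here. 30 tumors were from female dogs and 19 from males, and for 2 the sex was not given. The ages of 49 dogs lay between 3 and 14 years. The dogs were 9 Boxers, 9 Labrador Retrievers, 14 Crossbred dogs and 17 dogs of 12 other breeds, and for tumors 28 and 48 the breed was not given. The labels give no histological grade and no differentiated or undifferentiated class, so the classes of the study were not analysed here. All 51 tumors form 1 group, and they were compared by sex, breed and age and along a measured level of proliferation genes.

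Collagens are secreted proteins of the extracellular matrix whose chains wind into a triple helix, with glycine recurring at regular steps along each chain. Fibrillar collagens build the tensile fibrils of the dermis, FACITs lie on the surface of these fibrils, and collagen IV forms the sheet-like network under epithelia and around vessels. In skin the fibrillar chains are made mainly by dermal fibroblasts, and collagen VII anchors the epidermal basement membrane to the dermis.

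The glycine repeat can be read in the probes themselves. Each probe has 60 bases, and the motif GGN, the glycine codon, was searched on the printed strand only, in steps of 9 bases (GGNNNNNNN in a row). A run of at least 6 such codons was found in 16 probes of the array, 0.0367% of all, and 8 of these carried a collagen gene name, 13.1% of the 61 collagen probes. The named probes among the other 8 belonged to C1QC, SCARA3 and SCARA5, whose proteins also have collagen-like stretches. One probe of each of the 5 collagen genes with such a run is shown 5′ to 3′ with the glycine codons in capitals, because these probes lie in the helix that all members share. The positions are those of the array files, whose genome build is not given in the sources used here.
COL1A1, chr9:29513653-29513712, minus strand: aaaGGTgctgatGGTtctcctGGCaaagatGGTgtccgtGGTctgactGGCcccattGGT
COL1A2, chr14:22857152-22857307, plus strand: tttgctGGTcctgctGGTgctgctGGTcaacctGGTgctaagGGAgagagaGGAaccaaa
COL11A2, chr12:5646455-5646692, minus strand: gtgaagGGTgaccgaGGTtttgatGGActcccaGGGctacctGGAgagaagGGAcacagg
COL4A2, chr22:61739054-61739113, plus strand: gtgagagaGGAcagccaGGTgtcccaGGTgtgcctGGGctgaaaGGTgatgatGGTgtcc
COL7A1, chr20:43545341-43545400, plus strand: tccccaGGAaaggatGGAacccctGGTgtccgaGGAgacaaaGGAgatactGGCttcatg

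None of these 8 helix probes was the brightest probe of its gene, and a gene is represented below by its brightest probe. The helix probes of COL1A1, COL1A2 and COL7A1 shown above still followed the brightest probe of their gene across the 51 tumors, with Pearson correlations of 0.92, 0.89 and 0.98. The COL4A2 probe, well above background on 35 arrays, had a correlation of 0.73, and the COL11A2 probe, well above background on none, had 0.31. Among all 35 probes that were not the brightest of their gene, 25 correlated with it above 0.8.

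Another pair of sequences is shown because COL12A1 and COL14A1 code for related FACIT chains, and a probe of each covers a similar stretch. The COL14A1 probe is the brightest of its gene and the COL12A1 probe is not. Capitals mark the 36 of 51 aligned bases, 70.6%, that are identical.
COL12A1, chr12:39745168-39745227, minus strand: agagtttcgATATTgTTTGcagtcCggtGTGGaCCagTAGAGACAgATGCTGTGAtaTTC
COL14A1, chr13:22213771-22216816, plus strand: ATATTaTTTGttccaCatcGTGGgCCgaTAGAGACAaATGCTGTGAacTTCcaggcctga
Across the 51 tumors the levels of these probes had r = -0.0027, given as a description.

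Between 59.4% and 74.8% of the spots of an array were well above background, with a median of 68.7%. The mast cell markers on the array, KIT, FCER1A, MS4A2 and CMA1, were well above background in every tumor, and their mean log2 level ranged from 13.54 to 16.79. Tumor 40, labelled female, and tumor 35, labelled male, had a level of the Y-linked gene JARID1D in the range of the other sex, and the count by sex is also given without them. Because whole tumor tissue was measured, fewer cells of a type and less RNA per cell cannot be told apart.

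Collagen genes varied more between tumors than most probes. Their brightest probes had standard deviations (SD) of the log2 level between 0.41 and 2.38 with a median of 1.03 over the 21 genes well above background on at least 50% of arrays, against a median of 0.51 over all probes of the array, dim ones included. 17 of the 26 genes were well above background in all 51 tumors, and no collagen spot was saturated. The spread of each gene around its own median is plotted for all tumors.

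**Figure D1:**
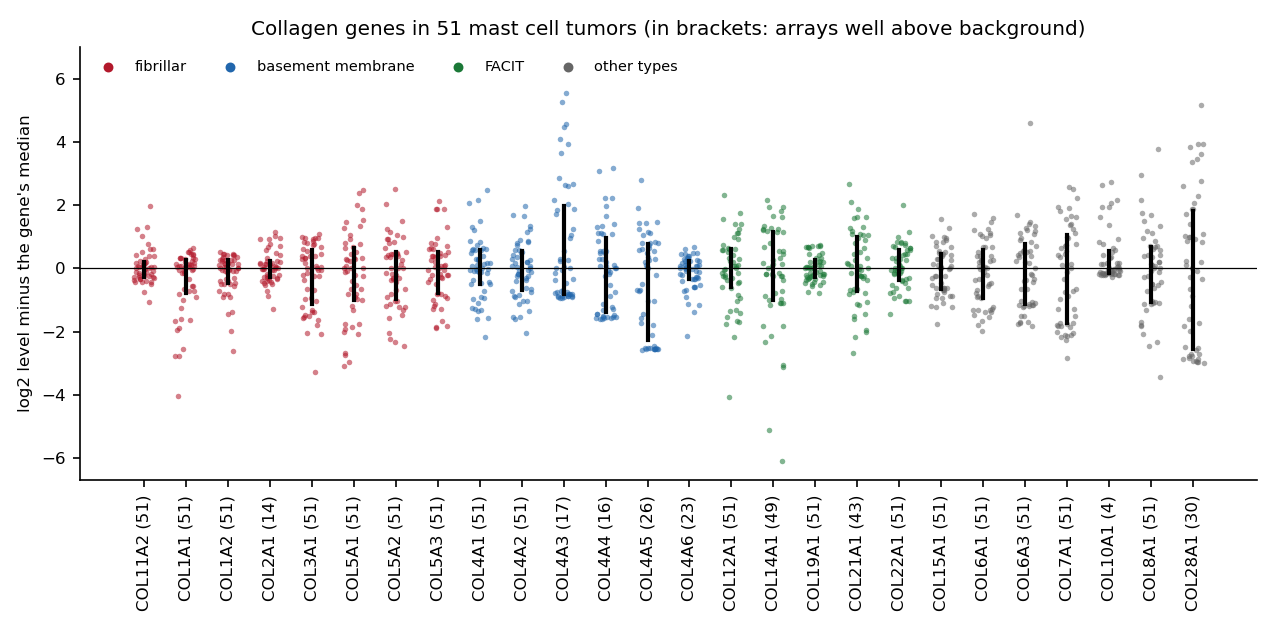
Level of each collagen gene in each of 51 tumors, as the log2 level of its brightest probe minus the gene's median over tumors (y axis), with genes grouped and colored by type (x axis; the number of arrays well above background is in brackets). Points are tumors and the black bar spans the middle 50%; COL14A1 and COL28A1 spread over more than 8 log2 units, COL19A1 over 1.54.

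Of the fibrillar genes, 7 of 8 were well above background in every tumor. COL1A1, the main chain of collagen I, had a log2 level of 12.22 at the lowest, 16.25 at the median and 16.88 at the highest. COL1A2, the partner chain of collagen I, lay between 15.52 and 18.64 with a median of 18.12, and COL3A1, the single chain of collagen III, between 12.63 and 16.996 with a median of 15.90. For all 3 genes most tumors sat close to the upper end and a few fell far below it. Their brightest probes lay near the top of the measured scale, whose highest value for any probe was 18.87. For COL1A2 the SD was 0.64 for the brightest probe, 0.47 for a probe that shares 54 bases with it, and between 1.20 and 1.45 for the other 4 probes, so the size of a difference depended on the probe.

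COL5A1, a chain of collagen V that regulates fibril diameter, had the widest spread of the 7 fibrillar genes measured above background in most tumors, with an SD of 1.37 and levels of 7.79, 10.89 and 13.37 at the lowest, median and highest tumor. COL11A2, a minor fibrillar chain best known from cartilage, had the narrowest of these 7, with an SD of 0.53 and levels of 5.59, 6.64 and 8.61. COL5A2 ranged from 11.16 to 16.11 and COL5A3 from 6.69 to 10.68. COL2A1, the cartilage collagen, was the fibrillar gene not well above background in most tumors: its brightest probe passed on 14 arrays and stayed between 2.63 and 5.06.

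The basement membrane genes fell into well measured and dim ones. COL4A1 and COL4A2, the chains of the collagen IV network found in all tissues, were well above background in every tumor. Their levels ran from 10.11 over 12.27 to 14.76 and from 10.28 over 12.32 to 14.30, with an SD of 0.90 for COL4A2, the narrowest among the 3 genes of this type that passed on 50% of arrays or more. COL4A5, a chain of the more restricted networks, was well above background on 26 arrays and had the widest SD of these 3, 1.54, between 1.66 and 7.03. COL4A3, COL4A4 and COL4A6 were well above background on 17, 16 and 23 arrays, and their medians of 2.73, 3.35 and 3.97 therefore lie in the range of background. The highest COL4A3 level, 8.27, and the highest COL4A4 level, 6.52, were both in tumor 22.

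Among the FACIT genes, COL14A1 had the widest and COL19A1 the narrowest spread of those measured. COL14A1, whose product lies on the fibrils of dermis and tendon, was at 2.01 in the lowest tumor, 8.09 at the median and 10.27 in the highest. It was well above background on 49 of the 51 arrays, so the low end of this range is background. COL19A1 stayed between 10.05 and 11.59 in all 51 tumors (SD 0.41). Its level differed between scan sessions, from 11.34 to 11.57 in the 7 tumors of session 1 and from 10.10 to 10.89 in the 7 of session 6. The part of the session in its spread was not tested. COL12A1 lay between 9.40 and 15.81 with a median of 13.48, COL21A1 between 3.15 and 8.502, and COL22A1, known from tissue junctions, between 6.04 and 9.51.

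Of the other types, COL15A1, a multiplexin near basement membranes, ranged from 10.18 to 13.49. COL6A1 and COL6A3, chains of the beaded filaments of collagen VI, ranged from 12.70 to 16.40 and from 7.31 to 13.75. The highest COL6A3 level was that of tumor 30 alone, and the next was 10.84. In the 9 Labrador Retrievers, tumor 30 among them, the SD was 2.01 for the brightest COL6A3 probe and between 1.07 and 1.15 for the others. COL7A1, the collagen of anchoring fibrils, ranged from 7.00 to 12.43 with a median of 9.85. COL8A1, a short chain collagen of vessels, ranged from 6.79 to 14.00. COL10A1, the collagen of hypertrophic cartilage, was well above background on 4 arrays. COL28A1 had the widest spread of all members (SD 2.38), from 1.86 to 10.01, and was well above background on 30 arrays. The array files describe its probe as similar to a matrilin-2 precursor, so its identity as a collagen rests on the gene name.

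Several of the lowest and highest levels came from the same tumors. Tumor 46, a Boxer, was the lowest of all in 6 of the 21 genes well above background on at least 50% of arrays and among the 3 lowest in 9, including COL1A1 (12.22), COL1A2 (15.52), COL3A1 (12.63) and COL5A2 (11.16). Tumor 2, a Cocker Spaniel, was also among the 3 lowest in 9, including COL5A1 (7.79), COL4A2 (10.28) and COL12A1 (9.40). These tumors had fibroblast marker levels of 10.76 and 10.65, where the median tumor had 12.04. At the other end, tumor 41 was among the 3 highest in 9 genes and tumor 14 in 8, with COL5A1, COL5A2, COL4A1, COL4A2 and COL12A1 in both sets.

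Chains that build 1 molecule or 1 structure were compared next, as 14 pairs with both genes on the array. Pearson's r and Spearman's rho were computed over 51 tumors, with 2-sided permutation tests of 100000 resamples and p-values adjusted over the 14 pairs. 11 pairs were called at an adjusted p under 0.05, all positive. COL1A1 with COL1A2 had r = 0.91 and rho = 0.79, COL1A1 with COL3A1 had r = 0.91 and rho = 0.92, and COL5A1 with COL5A2 had r = 0.94 and rho = 0.93. COL4A1 and COL4A2, which lie next to each other on chromosome 22 and are transcribed in opposite directions, had r = 0.94 and rho = 0.92. All 4 reached the smallest p the resamples allow, 1e-05 (adjusted p = 1.56e-05 for r), and kept r between 0.89 and 0.95 without the 2 tumors farthest from the median and with the means of the scan sessions removed.

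The partner chains of the restricted collagen IV networks were less tightly tied. COL4A3 with COL4A4 had r = 0.74 and rho = 0.66 (adjusted p = 1.56e-05), and r = 0.66 without the 2 farthest tumors. COL4A5 with COL4A6 had r = 0.29 and rho = 0.47 (adjusted p = 0.04995 for r and 0.000817 for rho), and without the 2 farthest tumors r was 0.28 (adjusted p = 0.0583), so its call did not hold. None of these 4 genes was well above background in more than 26 tumors. COL4A1, the ubiquitous chain, did not pass the test with COL4A5 (r = 0.19, rho = 0.15, adjusted p = 0.188). COL6A1 with COL6A3, chains of 1 heterotrimer, had r = 0.63 and rho = 0.71 (adjusted p = 1.56e-05). Across 6 alternatives, among them the mean over all probes of a gene, this r lay between 0.60 and 0.73.

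Across types, COL1A1 was positively correlated with COL5A1 (r = 0.82), COL6A3 (r = 0.64), COL4A1 (r = 0.57) and COL12A1 (r = 0.56), with rho of 0.88, 0.78, 0.56 and 0.50 and adjusted p for r of at most 9.8e-05. With the session means removed these r were 0.86, 0.66, 0.63 and 0.57, and without the 2 tumors farthest from the median 0.82, 0.65, 0.49 and 0.51. COL1A1 with COL14A1 gave r = 0.25 (adjusted p = 0.0929) but rho = 0.54 (adjusted p = 4.67e-05), and r = 0.31 without the 2 farthest tumors (adjusted p = 0.0368), so this call depended on them and on the measure. COL12A1 with COL14A1 had r = 0.05 and rho = 0.16 (adjusted p = 0.734 for r). Over all pairs of the 21 better measured genes, the median r was 0.51 for 21 fibrillar pairs, 0.53 between fibrillar and basement membrane genes, 0.33 between fibrillar and FACIT genes and 0.10 among the 10 FACIT pairs. Over all 210 pairs it was 0.35. These medians are a description of the tumors, with no test.

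**Figure D2:**
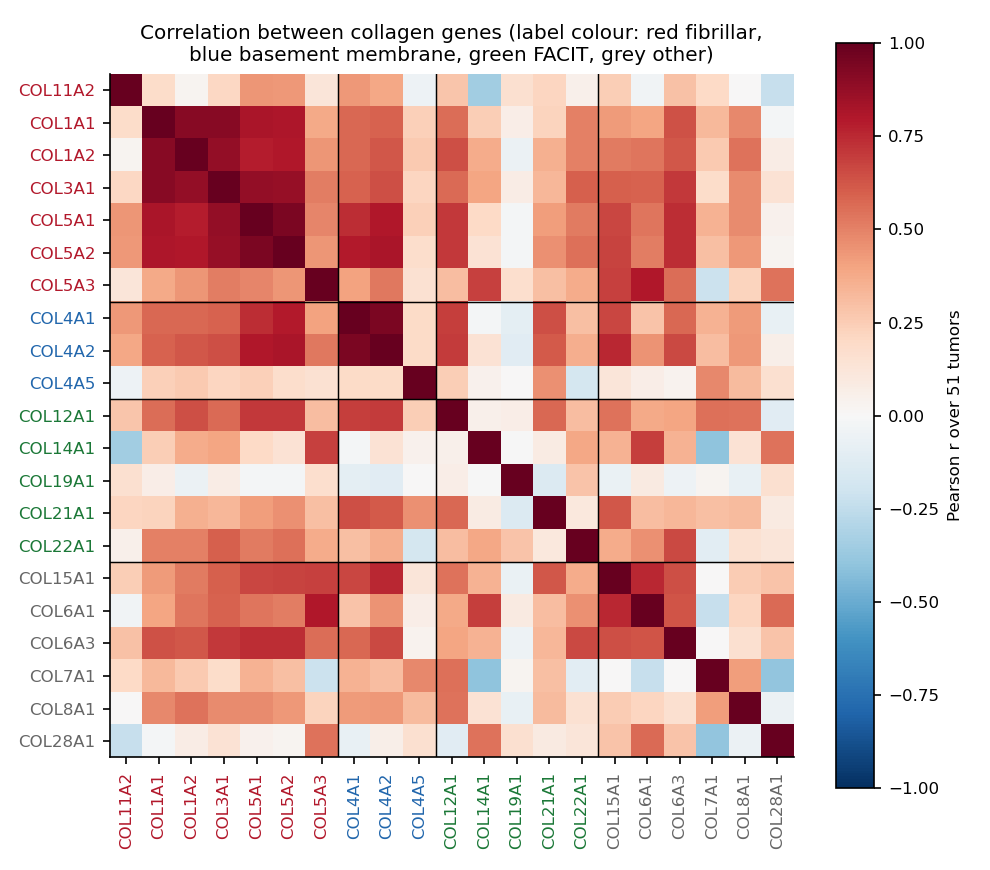
Pearson correlation over 51 tumors between the log2 levels of 21 collagen genes well above background on at least 50% of arrays (color scale from -1 to 1; both axes list the genes by type, with lines between fibrillar, basement membrane, FACIT and other types). COL1A1, COL1A2, COL3A1, COL5A1 and COL5A2 form a block with COL4A1 and COL4A2 joined to it; COL14A1 is near 0 with COL12A1 and negative with COL7A1.

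The 9217 genes outside the collagens whose name is a RefSeq symbol or synonym were ranked by their r with 4 collagen genes over 51 tumors, as a description. The closest to COL1A1 were SPOCK1 (r = 0.87), D2HGDH (0.86), SPARC (0.86), ITGA11 (0.85) and ADRB3 (0.84). SPARC is a collagen-binding matrix protein, and ITGA11 is a subunit of a receptor for fibrillar collagen. The closest to COL4A1 were SEC24D (0.85), RILPL1 (0.84), P4HA2 (0.80), KDELR3 (0.79) and SERPINH1 (0.78). P4HA2 is a subunit of collagen prolyl hydroxylase, SERPINH1 is the collagen chaperone, and SEC24D is part of the coat of vesicles leaving the endoplasmic reticulum. Near COL12A1 were ITGB5 (0.78), CDH13 (0.77), TEAD1 (0.76) and THBS1 (0.76), and the closest to COL14A1 were C1S (0.89), OLFML1 (0.88), ECM2 (0.88), ITGBL1 (0.88) and CDON (0.86). No gene named here stood in more than 1 of these sets.

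The collagen levels were then set against the mean log2 levels of marker lists of 9 cell types, since the tumors contain other cells than mast cells. The keratinocyte level split the tumors into 25 with levels from 1.76 to 7.60 and 26 with levels from 10.32 to 13.38, and was tested within each cluster only. Together 260 relations of a gene with a list were tested by permutation, with p-values adjusted over all of them, and 53 were called. Beside the count for each list stands the share of all 43603 probes, dim ones included, whose r with that list was at least as far from 0, in the same direction, as the weakest r called among collagen genes. With slide means removed, 27 were called. With means removed, values were permuted within slides or sessions.

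Fibroblast markers, which include DCN, LUM and PDGFRA, were all well above background in all tumors and had the most relations. 17 of 26 collagen genes were positively correlated with the fibroblast level, with a median r of 0.55 over all 26 and -0.04 over all probes. The weakest called r was 0.38, which 6.91% of all probes reached. The highest r were those of COL6A1 (r = 0.82, rho = 0.82), COL3A1 (r = 0.81, rho = 0.84) and COL5A2 (r = 0.79, rho = 0.80), each with an adjusted p of 0.000173 and r of at least 0.77 without the 2 farthest tumors. The lowest were COL4A3 (r = -0.10), COL7A1 (r = -0.10) and COL10A1 (r = -0.01), none of them called (adjusted p between 0.742 and 0.979). 7 of the 8 fibrillar genes were called, COL11A2 (r = 0.16) being the exception, and so were COL4A1 and COL4A2 but none of the 4 other collagen IV genes.

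Mast cell markers were called with 7 genes, all negative, and 6.85% of all probes reached the weakest of these r, -0.40. COL21A1 had r = -0.59 and rho = -0.64 (adjusted p = 0.000173), COL4A5 had r = -0.47 and rho = -0.57 (adjusted p = 0.00334), and COL15A1 had r = -0.46 and rho = -0.45 (adjusted p = 0.00493), with r = -0.36 and an adjusted p of 0.151 for COL15A1 once slide means were removed. COL4A2, COL4A1, COL12A1 and COL7A1 followed with r between -0.43 and -0.40. Neither COL1A1 nor another fibrillar gene was among them, and the highest r were 0.04 for COL10A1, 0.04 for COL19A1 and 0.0025 for COL22A1. The list rests on 4 of its 10 genes, the others being no named probe of this array.

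Endothelial markers were positively correlated with 9 genes, led by COL21A1 (r = 0.64, rho = 0.67), COL4A2 (r = 0.63, rho = 0.59) and COL4A1 (r = 0.58, rho = 0.50). The weakest called r was 0.39, and 4.12% of all probes reached it. The adjusted p of the leading 3 was 0.000173 for r, and without the 2 farthest tumors r was 0.64, 0.55 and 0.48. The lowest were COL19A1 (r = -0.25), COL4A6 (r = -0.16) and COL22A1 (r = -0.05), which were not called. Of the 6 collagen IV genes, the ubiquitous pair was thus called with endothelial markers, whereas COL4A3 (r = 0.54), COL4A4 (r = 0.50) and COL4A5 (r = 0.49) had the highest r with smooth muscle and pericyte markers (adjusted p from 0.00065 to 0.0024). With slide means removed these 3 were 0.51, 0.46 and 0.39 and not called (adjusted p from 0.0633 to 0.141). Whether the r of these genes differed between the lists was not tested. Tumors 22, 9 and 17, with the highest COL4A3 levels, had smooth muscle and pericyte levels of 9.42, 9.30 and 8.63 (median tumor 8.16). Their keratinocyte levels, 13.06, 12.20 and 12.19, were in the upper cluster. Tumors 46 and 51 of the lower cluster also had high smooth muscle and pericyte levels, 9.39 and 9.41. Their COL4A3 levels, 2.26 and 2.35, were below the median of 2.73. The part of the keratinocyte level in these r was not tested. The lowest with smooth muscle and pericyte markers were COL22A1 (r = -0.17), COL11A2 (r = -0.08) and COL6A3 (r = -0.07), not called. This list had 5 called genes, and 5.83% of all probes reached the weakest of their r, 0.43.

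Keratinocyte markers were called with COL7A1 and COL4A5 in the upper cluster and with COL4A3 in the lower. In the 26 tumors of the upper cluster COL7A1 had r = 0.70 and rho = 0.67 (adjusted p = 0.000867) and COL4A5 had r = 0.58 and rho = 0.49 (adjusted p = 0.0111 for r and 0.0627 for rho), where 3.5% of all probes reached an r of 0.58. COL4A3 had r = 0.41 there, and COL22A1, COL2A1 and COL5A2 the lowest values, -0.36, -0.28 and -0.20, none called. Without the 2 farthest of these 26 tumors r was 0.65 for COL7A1 and 0.51 for COL4A5 (adjusted p = 0.0503). With slide means removed neither was called: r was 0.66 for COL7A1 (adjusted p = 0.181) and 0.39 for COL4A5 (adjusted p = 0.48). In the 25 tumors of the lower cluster only COL4A3 was called (r = 0.64, adjusted p = 0.0103, an r that 0.367% of all probes reached), with rho = 0.26 and r = 0.40 (adjusted p = 0.171) without the 2 farthest tumors, so that relation rests on them. The next highest there were COL1A2 (r = 0.34) and COL3A1 (r = 0.33), and the lowest COL11A2 (r = -0.37), COL2A1 (r = -0.16) and COL10A1 (r = -0.15), none called.

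The remaining lists gave few calls, most of which did not hold in the alternatives. With adipocyte markers COL28A1 (r = 0.49), COL4A3 (r = 0.46), COL4A5 (r = 0.45) and COL4A4 (r = 0.40) were called, and 2.07% of all probes reached the last of these r. COL28A1 was not called without the 2 farthest tumors (r = 0.35, adjusted p = 0.0715), and COL4A5 not with slide means removed (r = 0.38, adjusted p = 0.15). The lowest with adipocyte markers were COL22A1 (r = -0.13), COL11A2 (r = -0.11) and COL2A1 (r = -0.07). With cartilage markers COL4A5 (r = 0.43), COL21A1 (r = 0.42), COL7A1 (r = 0.37) and COL8A1 (r = 0.36) were called, where 1.49% of all probes reached an r of 0.36. With slide means removed the first 3 of these had r = 0.25, 0.43 and 0.33 and were not called (adjusted p from 0.115 to 0.295). The lowest there were COL10A1 (r = -0.16), COL14A1 (r = -0.10) and COL28A1 (r = -0.04).

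COL14A1 was the single gene called with Schwann cell markers (r = 0.43, adjusted p = 0.0107), a list in which 2 of 5 genes passed background on 50% of arrays or more, and 0.463% of all probes reached this r. It was not called with 75th percentile scaling (r = 0.27, adjusted p = 0.169). COL28A1 (r = 0.33) and COL5A3 (r = 0.32) came next, and COL7A1 (r = -0.26), COL11A2 (r = -0.16) and COL10A1 (r = -0.14) were lowest. COL1A2, COL3A1 and COL1A1 were negatively correlated with skeletal muscle markers (r = -0.42, -0.40 and -0.38), with adjusted p from 0.0191 to 0.0448, and 2.66% of all probes reached the last of these r. With session means removed these r were -0.37, -0.33 and -0.26 and none was called (adjusted p from 0.0621 to 0.36). The highest with skeletal muscle markers were COL4A5 (r = 0.18), COL10A1 (r = 0.15) and COL21A1 (r = 0.13), not called. Of the 5 skeletal muscle markers on the array, 3 passed background on 50% of arrays or more.

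**Figure D3:**
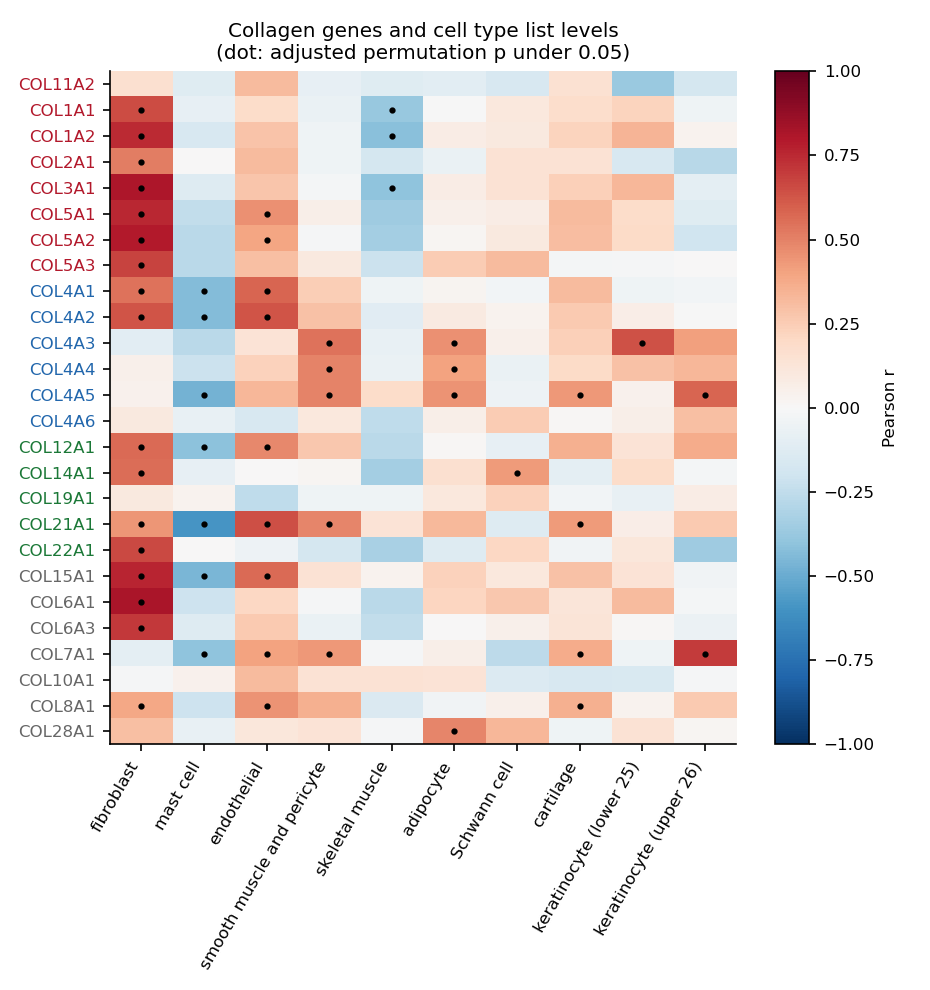
Pearson correlation of 26 collagen genes (y axis, label color red for fibrillar, blue for basement membrane, green for FACIT and grey for other types) with the mean log2 level of cell type marker lists (x axis) over 51 tumors, or within the 25 and 26 tumors of the keratinocyte clusters. Dots mark adjusted permutation p under 0.05; the fibroblast column holds 17 dots, the mast cell column 7, all negative.

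Tumors differ in how many of their cells divide, and a level of proliferation was taken as the mean log2 level of 11 cell cycle genes, among them TOP2A, AURKA and PLK1, none of them a collagen. It ranged from 5.54 to 9.96 with a median of 7.14. The slope of each probe on this level was fitted with limma over all 43603 probes and 51 tumors. Of the 61 collagen probes 9 were called at an adjusted p under 0.05, 4 higher and 5 lower, where 14.8% of all probes of the array were called (7.3% higher and 7.47% lower). The share among collagen probes was close to that of the array, and the median slope was -0.05 for collagen probes and -0.01 for all. Counted by gene with its brightest probe, 2 of 26 rose, 3 fell and 21 did not pass.

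COL14A1 fell the most. Its log2 level dropped by 1.15 per log2 unit of the proliferation level (standard error (SE) 0.15, limma adjusted p = 1.81e-07), and its second probe by 1.08 (adjusted p = 2.18e-07). The slope was negative in all 6 scan sessions with 6 or more tumors, between -1.28 and -0.39, and was -1.04 without the 2 tumors farthest from the median proliferation level. The lowest COL14A1 levels, 2.01 in tumor 8 and 2.98 in tumor 51, came with proliferation levels of 8.96 and 9.96, as the plot of levels shows. These values lie in the range of background, COL14A1 being well above it on 49 of 51 arrays. The Schwann cell level, with which COL14A1 had r = 0.43, was itself negatively correlated with the proliferation level (r = -0.42, rho = -0.38, permutation p adjusted over 8 lists 0.0188 for r and 0.0556 for rho), and its part in the COL14A1 slope was not tested.

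COL28A1 and COL6A1 also fell. COL28A1 dropped by 1.03 per log2 unit (SE 0.28, adjusted p = 0.00787), with a negative slope in 6 of 6 sessions. COL6A1, a chain of collagen VI, dropped by 0.40 (SE 0.12, adjusted p = 0.0139), and its second probe by 0.38 (adjusted p = 0.0422), with a negative slope in 5 of 6 sessions. COL6A1 was also the gene most tied to fibroblast markers, and the fibroblast level itself had r = -0.33 with the proliferation level (rho = -0.34, permutation p adjusted over 8 lists 0.0518). With the fibroblast level as a covariate the COL6A1 slope was -0.17 (adjusted p = 0.13), while those of COL14A1 (-0.96, adjusted p = 2.32e-06) and COL28A1 (-0.90, adjusted p = 0.0267) remained called.

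COL7A1 and COL11A2 rose. COL7A1, the anchoring fibril collagen, rose by 0.62 per log2 unit (SE 0.18, adjusted p = 0.0146), its second probe by 0.62 (adjusted p = 0.0191), and the slope was positive in 6 of 6 sessions. With the keratinocyte level as a covariate, added after the data were seen, it was 0.47 (adjusted p = 0.00496). COL11A2 rose by 0.22 (SE 0.064, adjusted p = 0.0146), positive in 4 of 6 sessions and 0.14 without the 2 farthest tumors. It was not called without tumor 14, which had its highest level of 8.61 (0.16, adjusted p = 0.0629), nor with slide as a fixed block (0.19, adjusted p = 0.0818). The skeletal muscle level was itself positively correlated with the proliferation level (r = 0.37, rho = 0.31, permutation p adjusted over 8 lists 0.0262 for r and 0.0811 for rho, r = 0.26 without the 2 farthest tumors), and its part in these slopes was not tested.

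**Figure D4:**
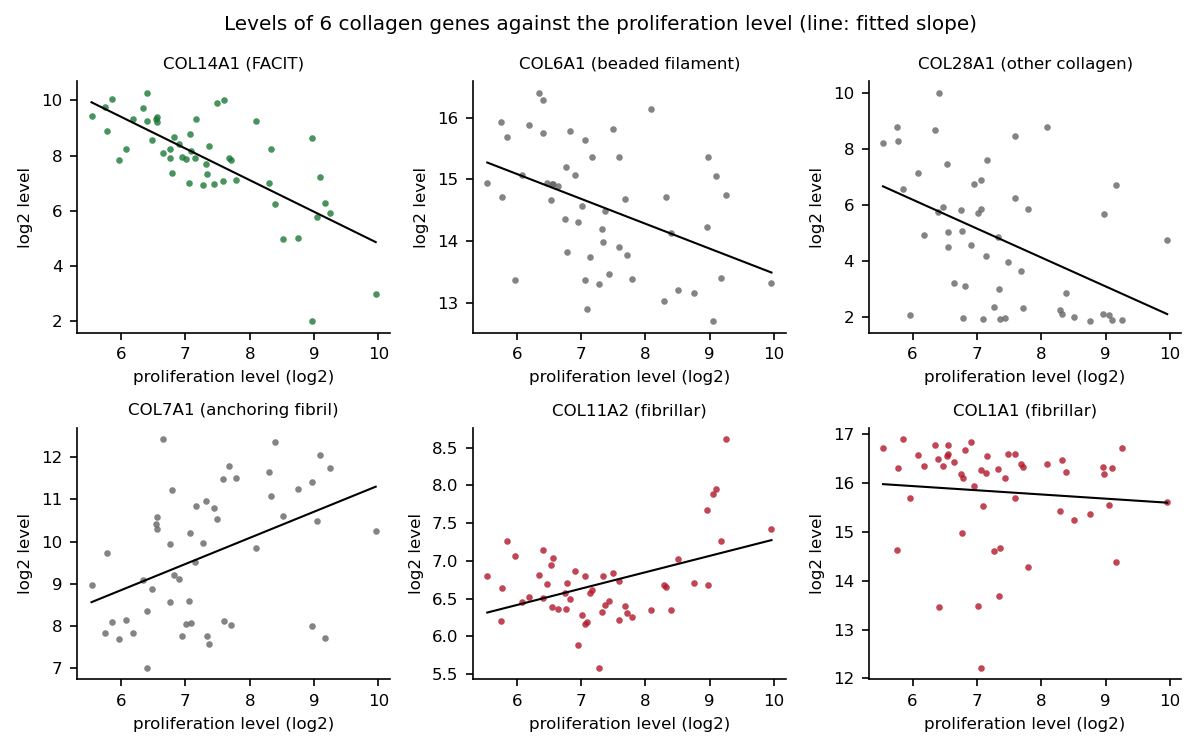
Log2 level of the brightest probe of 6 collagen genes (y axes) against the proliferation level, the mean log2 level of 11 cell cycle genes (x axes); each point is 1 of 51 tumors and the line is the fitted slope. COL14A1, COL6A1 and COL28A1 fall, COL7A1 and COL11A2 rise, and COL1A1 has no called slope.

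The main fibrillar genes were not called. The slope was -0.09 (95% interval -0.36 to 0.19) for COL1A1, -0.12 (-0.29 to 0.04) for COL1A2, -0.17 (-0.45 to 0.10) for COL3A1 and 0.06 (-0.23 to 0.35) for COL5A2. The 4 less bright, separate COL1A2 probes had steeper slopes than the brightest, between -0.40 and -0.29, with adjusted p from 0.148 to 0.217. COL5A3 (-0.32, adjusted p = 0.0622) and COL22A1 (-0.22, adjusted p = 0.0691) lay just outside the threshold. COL4A1 had a slope of 0.27 (adjusted p = 0.152), and its other probe 0.35 (adjusted p = 0.0391), so its call depended on the probe. COL12A1 had a slope of 0.03 (-0.28 to 0.33), an interval that did not overlap that of COL14A1 (-1.46 to -0.84).

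With the mast cell level as a covariate 8 of the 61 collagen probes were called, against 14.6% of all probes. With the keratinocyte level it was also 8, against 16.3%.

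With the fibroblast level held constant, 22 of the 61 collagen probes were called, against 16.6% of all probes. COL4A1 then had a slope of 0.48 (adjusted p = 0.000188), COL4A2 0.33 (adjusted p = 0.00644), COL5A1 0.35 (adjusted p = 0.0342), COL5A2 0.36 (adjusted p = 0.000872) and COL21A1 0.49 (adjusted p = 0.00683). Without this covariate the slopes of COL4A2, COL5A1 and COL21A1 were 0.12, -0.0078 and 0.28. Slopes without it were negative in 4 of 6 sessions for COL4A2, COL5A1 and COL5A2, in 3 for COL4A1 and in 1 for COL21A1. Session 6 had the highest slope of each gene, between 1.12 and 1.45. Single sessions were not fitted with the covariate. COL1A1 (0.14, adjusted p = 0.454), COL1A2 (0.03, adjusted p = 0.841) and COL3A1 (0.10, adjusted p = 0.5258) were still not called. In each sex alone, 4 probes in the 30 females (COL14A1 and COL7A1, 2 each; 4.02% of all probes called) and 2 in the 19 males (both of COL14A1; 4.86%) were called. No collagen gene had a called interaction of sex with the proliferation level (lowest p for COL14A1, 0.124, limma adjusted p = 0.627).

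**Figure D5:**
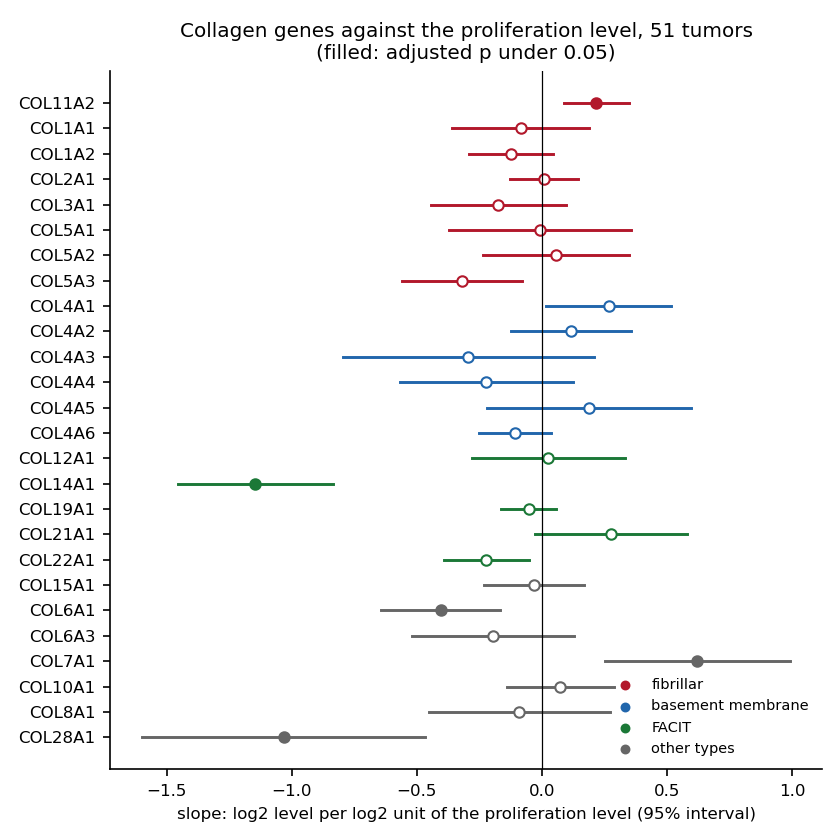
Slope of each collagen gene's log2 level per log2 unit of the proliferation level (x axis) with its 95% interval, over 51 tumors; genes are listed and colored by type on the y axis and filled points have a limma adjusted p under 0.05. COL14A1 (-1.15) and COL28A1 (-1.03) stand at the low end and COL7A1 (0.62) at the high end, with most fibrillar and collagen IV intervals crossing 0.

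Enzymes and chaperones that process collagen were described by the same fit. Of 25 listed genes on the array 2 rose and none fell: PPIB, a peptidyl-prolyl isomerase of the endoplasmic reticulum (0.22, adjusted p = 8.43e-05), and P4HB, the shared subunit of prolyl hydroxylase (0.15, adjusted p = 0.00996). The array-wide share was 14.8% (7.3% higher and 7.47% lower). Both genes also serve other secreted proteins. SERPINH1, the collagen-specific chaperone, had a slope of -0.06 (adjusted p = 0.822). None of the 6 collagen receptor genes was called by limma (4 had an unadjusted p under 0.05), the nearest being ITGA11 with a slope of -0.65 (adjusted p = 0.0506).

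No collagen probe was called by sex, breed or age in the limma fits. By sex 0 of 61 were called, where 0.0619% of all probes were, and 1 had an unadjusted p under 0.05. That was COL2A1, with 3.84 ± 0.41 (SD) in 30 females and 4.18 ± 0.59 in 19 males (difference -0.34, adjusted p = 0.791), well above background in 5 and 9 of them. The other 2 COL2A1 probes had differences of 0.13 and 0.35, also not called. Next were COL19A1, with 10.96 ± 0.40 and 10.74 ± 0.39 (difference 0.21), and COL4A4, with 3.65 ± 1.37 and 2.96 ± 1.19 (difference 0.69), both at an adjusted p of 0.791. Across 11 alternatives these differences lay between 0.02 and 0.21 for COL19A1, whose level differed between scan sessions, and between 0.14 and 0.84 for COL4A4. The median difference of female over male was 0.18 over collagen probes and -0.01 over all probes, and the groups overlapped for all 3 genes. 22 of the 26 genes were on the side of females, none of them called. Collagen genes are correlated with each other, so these are not 26 separate results, and the count was not tested. Without tumors 35 and 40, an alternative added after the data were seen, the count was also 0. Of the 9 scan sessions, session 6 held 6 males and no female among its 7 tumors, and with scan session as a fixed block the count was 0 as well.

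By breed 0 of 61 probes were called in each contrast, where 0.0849% of all probes were called for Boxer over Labrador Retriever, 0.0252% for Boxer over Crossbred and 0.0229% for Labrador Retriever over Crossbred. Unadjusted p was under 0.05 for 1, 0 and 2 collagen probes. The lowest were collagen IV genes, which are dim in these tumors. COL4A6 had levels of 3.92 ± 0.35 in 9 Boxers, 3.44 ± 0.59 in 9 Labrador Retrievers and 4.03 ± 0.23 in 14 Crossbred dogs, with limma adjusted p of 0.879 for Boxer over Labrador Retriever and 0.94 for Labrador Retriever over Crossbred. The brightest probe had a difference of -0.59 in the latter contrast and the second COL4A6 probe -0.05. For Boxer over Labrador Retriever these were 0.48 and 0.46. COL4A3 was well above background in 2 Boxers, no Labrador Retriever and 8 Crossbred dogs. Its measured means were 4.30 ± 2.24 in Crossbred dogs, 2.93 ± 1.74 in Boxers and 2.54 in Labrador Retrievers. No Labrador Retriever passed background. With each of its arrays raised to at least the lowest passing level of any probe, the mean of that breed was 2.99, which is higher than the mean of Boxers. The measured mean of Crossbred dogs was 2.47-fold above this value, given as a description. That is no lower limit, because only 8 of the 14 Crossbred dogs passed background and the passing level is not that of this probe. The difference of the measured means of Labrador Retriever over Crossbred, -1.76, was not called (limma adjusted p = 0.99995) and lay between -2.32 and -0.44 across the alternatives. That of Boxer over Crossbred, -1.37, was not called either (limma adjusted p = 0.9997). The second COL4A3 probe, well above background on no array, had differences of 0.006 for Labrador Retriever and 0.19 for Boxer over Crossbred. COL4A4 had 2.93 ± 1.49, 3.07 ± 1.18 and 3.97 ± 1.26 in Boxers, Labrador Retrievers and Crossbred dogs, with a difference of -1.04 for Boxer and -0.89 for Labrador Retriever over Crossbred. For COL4A5 the means were 4.06 ± 1.56, 3.26 ± 1.38 and 3.37 ± 1.65, and for COL22A1 7.47 ± 0.40 in Boxers and 7.84 ± 0.77 in Labrador Retrievers, none of them called. The ranges of the breeds overlapped for each of these genes.

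By age 0 of 61 probes were called over 49 tumors, as were 0% of all probes, with 2 collagen probes and 1061 of all probes at an unadjusted p under 0.05. The lowest p were for COL5A3 (-0.11 per year, SE 0.048), COL14A1 (-0.18 per year, SE 0.084) and COL6A1 (-0.10 per year, SE 0.051), all with a limma adjusted p of 0.9999. The 95% interval of the COL14A1 slope reached from -0.35 to -0.01 per year.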

How the data were processed

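Per the labels and the study's methods, RNA from the tumor centre was labelled with Cy3 and hybridized to Agilent canine arrays. The study labelled the RNA of some tumors again as technical replicates, and 1 array per tumor is used here. The deposited scanner files hold spot intensity values that the authors extracted and background-subtracted with Agilent Feature Extraction, and the deposited series table holds intensity values that the authors had quantile-normalized. Here, the log2 of the deposited processed intensity was quantile-normalized over 51 arrays, outlier-flagged and control spots were left out, and spots of a probe were averaged (43803 spots, 43603 probes). A gene stands for its brightest probe. Positions and names come from the array files.

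Linear models were fitted with limma 3.58.1 (R 4.3.3) without a filter on dim probes, with Benjamini-Hochberg adjustment over all probes and a threshold of 0.05. Correlations were tested in Python 3.11.15 with numpy 2.4.6. The scripts were tested on simulated data. Named were, by type, the genes with the widest and narrowest SD among those well above background on at least 50% of arrays; by comparison, all called genes or the 3 with the lowest p; all 14 pairs; for each list the 3 highest and 3 lowest r; and the 5 nearest genes of 4 collagens, of which 1 is not reported here. Fibroblast, mast cell and other lists are mean log2 levels of marker genes on the array. Other genes and tumors named were chosen after their values were seen. The members and lists were chosen with earlier results of these data known. Each tumor is a separate case. The number of arrays limits the precision. The arrays lay on 15 slides scanned in 9 sessions. Most sessions held both sexes and several breeds, but session 6 held no female among 7 tumors and session 7 a single tumor. Alternatives covered scaling, background correction, the authors' table, a dim filter, flags, slide, session, covariates and left-out tumors.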

Additional observations from a re-analysis of the deposited data

Results flagged for a closer look

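6 of 52 sets of 9 tumors of 1 breed had a lowest or highest value whose gap to the next, divided by the whole range, was above Dixon's critical value for 9 values. A rate of about 1 in 20 holds for independent sets of normally distributed values. These sets share tumors and hold correlated genes, and COL4A3 and COL10A1 were near background in most tumors. The count of 6 therefore cannot be set against that rate. In Boxers, tumor 46 had a COL1A1 level of 12.22 where the next was 15.68 (ratio 0.80) and a COL1A2 level of 15.52 where the next was 17.64 (0.678). Tumor 41 had the highest COL11A2 level of the Boxers, 7.96 against 7.06 (0.512), and tumor 6 the highest COL4A3 level, 7.20 against 3.98 (0.597). In Labrador Retrievers, tumor 34 had the highest COL10A1 level, 4.96 against 3.05 (0.650), and tumor 30 the highest COL22A1 level, 9.51 against 8.24 (0.527). Tumor 46 also had one of the lowest fibroblast marker levels, 10.76. The part of that in its low COL1A1 and COL1A2 was not tested.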

How the results depend on the processing

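The counts of 0 collagen probes by sex, by age and in each breed contrast stayed 0 in every alternative run and without each tumor. The count of 9 for the proliferation level was 3 at an adjusted p under 0.01 with a fold of at least 2 per SD, 22 with the fibroblast level as a covariate, 4 in females and 2 in males, stayed within 1.5 times in the other 12 alternatives, and ranged from 7 to 10 without each tumor. COL14A1 kept its call in all 16 (slopes -1.40 to -0.88), and none of the 5 called genes changed sign. COL6A1 (-0.69 to -0.17), COL7A1 (0.47 to 0.93), COL11A2 (0.14 to 0.27) and COL28A1 (-1.46 to -0.52) each lost the call in 2 to 4 of the 16. The 53 calls with cell type levels became 27 with slide means removed, and 11 called pairs ranged from 9 to 12. Correlations near 0 that were not called changed sign. With scaling to the 75th percentile, COL22A1 with endothelial became 0.0877 and COL11A2 with smooth muscle 0.0387. In the authors' table, COL11A2 with adipocyte became 0.213 and with smooth muscle 0.0409, COL2A1 with adipocyte 0.109, and COL21A1 and COL4A5 with skeletal muscle -0.10 and -0.043. With session means removed, COL2A1 with adipocyte became 0.022, COL4A6 and COL22A1 with endothelial 0.042 and 0.0782, COL10A1 with fibroblast 0.00476, COL22A1 and COL19A1 with mast cell -0.147 and -0.127, and COL12A1 with COL14A1 -0.0327. With slide means removed, COL22A1 and COL2A1 with adipocyte became 0.00757 and 0.03995, COL4A6 with endothelial 0.0989, COL2A1 with keratinocyte in the lower cluster 0.0907, COL22A1 and COL19A1 with mast cell -0.0356 and -0.191, and COL12A1 with COL14A1 -0.0318. Without the 2 farthest tumors, COL4A6 with endothelial became 0.0148, COL10A1 with skeletal muscle -0.147 and COL11A2 with smooth muscle 0.0339. With all probes averaged, COL2A1 with adipocyte became 0.252, with keratinocyte 0.275 (lower) and 0.177 (upper), COL4A6 with endothelial 0.0782, COL6A3 with smooth muscle 0.0388 and COL12A1 with COL14A1 -0.00255. The causes were not tested. No paired analysis was possible because the tumors form 1 group and share no replicate numbers. Genes near background, COL2A1, COL4A3 to COL4A6 and COL10A1 among them, limit what their levels show.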
